A study of Mus musculus with 6 samples.

Results

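The antioxidant enzymes described here are 10 genes chosen by name, namely Sod1, Sod2, Cat, Gpx1, Gpx4, Prdx1, Prdx3, Txnrd1, Hmox1 and Nqo1, out of 55450 genes in the deposited table. All 10 were found, and all 10 passed the low-expression filter, a mean FPKM of 1 or more across the 6 libraries. The mRNA came from C2C12 cells, a mouse skeletal muscle line whose myoblasts fuse into multinucleated myotubes when serum is lowered. In 3 libraries the cells had received siCD36, a small interfering RNA to Cd36 mRNA, and in 3 siCont, a negative control duplex. The study's methods give 20 nM siRNA by lipid transfection and use of the cells 72 h later, and call the transfected cells myotubes. The study presents the sequencing among its experiments without palmitic acid, which the protocol texts attached to the samples describe only for other assays. The labels call all samples myoblasts of strain C57BL/6 from skeletal muscle tissue. The knockdown was transient, more than a single siCD36 duplex is described, and the labels do not say which of them each library received. The study describes its measurements as independent experiments, but the labels do not say whether each library was a culture of its own, so the p-values cover only the spread among these libraries, and that spread may be technical.

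These enzymes remove reactive oxygen species (ROS) or act in the defence against them, and muscle forms ROS in its mitochondria, peroxisomes and membrane oxidases. Superoxide dismutases turn superoxide into hydrogen peroxide, and catalase, glutathione peroxidases and peroxiredoxins turn peroxides into water or alcohols. Peroxiredoxins are recharged by thioredoxin, which thioredoxin reductase renews with NADPH, while heme oxygenase and the quinone reductase NQO1 are classic targets of the transcription factor NRF2. The study assayed ROS after CD36 knockdown, and the comparison here asks whether mRNA of these enzymes differed between siCD36 and siCont.

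Gpx1, Gpx4 and Txnrd1 encode selenoproteins, in which a UGA codon is read as selenocysteine instead of a stop. This codon is shown because it carries the catalytic residue of these 3 enzymes and is what they share within the group. The lines give the coding strand from the GENCODE M21 transcripts, 5′ to 3′, with the selenocysteine codon in capitals as DNA.
Gpx1: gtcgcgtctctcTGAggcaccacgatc
Gpx4: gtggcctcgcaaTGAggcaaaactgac
Txnrd1: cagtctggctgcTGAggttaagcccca
In GRCm38 the codon of Gpx1 lies at chr9:108339451-108339453 on the plus strand, in exon 1 of the 2 exons of ENSMUST00000082429, as codon 47 of 201. That of Gpx4 lies at chr10:80054737-80054739 on the plus strand, in exon 3 of the 7 exons of ENSMUST00000105372, as codon 73 of 197. That of Txnrd1 lies at chr10:82896037-82896039 on the plus strand, in exon 14 of the 14 exons of ENSMUST00000020484, as codon 498 of 499, so the selenocysteine is next to last in the protein. The remaining 7 enzymes have no annotated selenocysteine codon.

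NRF2 binds antioxidant response elements, whose core was searched as TGACNNNGC on both strands of the RefSeq promoter windows of GRCm38.p6, which run from 250 bases before to 50 bases after a start. Windows were found for 9 of the 10 genes, and 3 of these held the letters, against 13.99% of the 27025 genes with a window. Hmox1 had no window, and Nqo1 had no match within its window. Elements further than 250 bases before a start were not searched. The matching sites are shown because they carry the letters of the searched core, which is in capitals, 5′ to 3′ on the strand that reads TGAC.
Prdx1: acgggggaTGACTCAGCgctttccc
Txnrd1: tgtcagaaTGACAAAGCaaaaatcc
Sod1: cctgagtcTGACCACGCccaccttg
The cores lie on the minus strand at chr4:116685466-116685474 for Prdx1, chr10:82859114-82859122 for Txnrd1 and chr16:90220706-90220714 for Sod1, with 124, 83 and 47 bases between core and RefSeq start. The Txnrd1 core lies inside the annotated gene, chr10:82833951-82897712, at a start within it. A match is a description of letters, and no binding was measured here.

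The deposited counts summed to 67048354 to 71878709 with siCD36 and to 56907806 to 60566530 with siCont. Cd36 checked the labels, with 0.578, 0.460 and 0.412 CPM (counts scaled to a common library size, after TMM factors) in siCD36 libraries, against 17.7, 18.8 and 19.2 CPM in siCont libraries. All 14 myotube markers were counted in every library, and their summed level was 9894 to 13492 FPKM with siCD36 and 13418 to 16558 FPKM with siCont. Among these, Myh3, the embryonic myosin heavy chain, fell (log2 fold change -0.62, adjusted p = 0.0210 from edgeR). The other 13 did not pass the adjusted threshold of 0.05. Of the 6 tested markers of myoblasts and proliferation, Myf5 and Ccna2 rose and 4 did not pass, while 5.26% of all genes passed. Markers of endothelium summed to 2.86 to 3.95 FPKM with siCD36 and 1.34 to 1.81 FPKM with siCont. Most of this sum was the angiopoietin receptor Tek, the 1 tested of them, at mean 3.31 FPKM with siCD36 and 1.46 FPKM with siCont. Tek rose (log2 fold change 1.15, adjusted p = 0.0216 from edgeR). Markers of macrophages summed to 1.55 to 3.21 FPKM with siCD36 and 1.22 to 2.46 FPKM with siCont. In bulk RNA, fewer cells of a type and less RNA per cell cannot be told apart.

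The order of the levels was the same with siCD36 and with siCont. Levels between genes are compared as FPKM, which the deposited table scales by the length of all annotated exons of a gene. Gpx4 was the most abundant of the 10 enzymes, at 321.6 ± 45.9 FPKM with siCD36 and 370.4 ± 11.1 FPKM with siCont (SD, n = 3 each). Prdx1 had 143.6 ± 26.8 and 143.1 ± 23.0 FPKM in siCD36 and siCont libraries, and Prdx3 had 105 ± 9.55 and 111 ± 4.57 FPKM in the same libraries (SD, n = 3 each). Gpx1, Sod1, Cat, Hmox1, Txnrd1 and Sod2 followed, with means over the 6 libraries of 91.3, 48.5, 29.9, 20.5, 17.0 and 10.3 FPKM. Nqo1 was lowest, at 2.79 FPKM with siCD36 and 2.65 FPKM with siCont. Neighbours in this order did not overlap between libraries of a group, except Prdx3 and Gpx1 with siCD36. The annotated exons that set this scale span 10008 bases for Sod2 and 1441 bases for Gpx1.

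**Figure D1:**
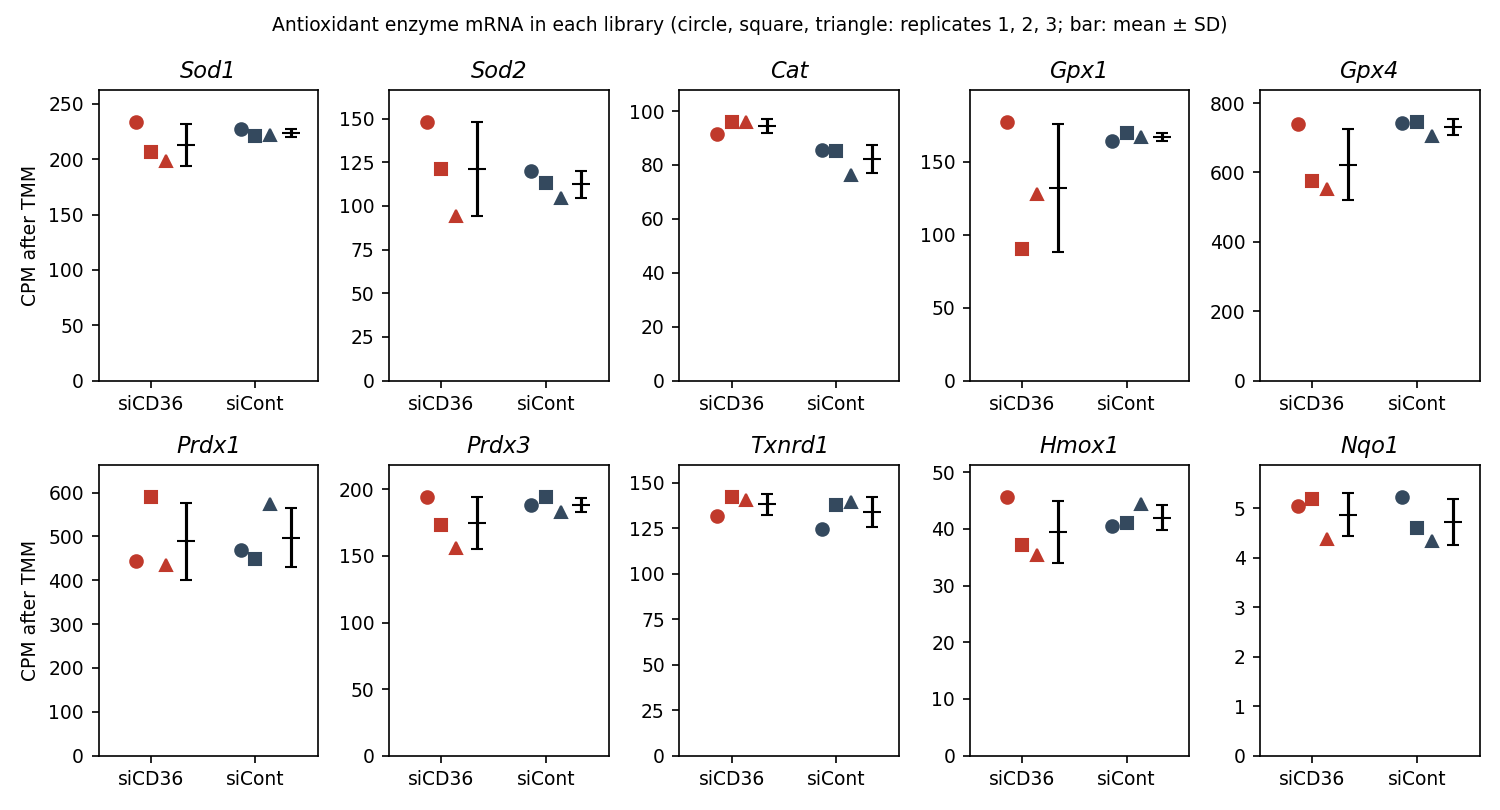
CPM after TMM scaling of each antioxidant enzyme gene in the 3 siCD36 libraries (red, left) and the 3 siCont libraries (blue, right), with circles, squares and triangles for replicates 1, 2 and 3 and a bar for the mean and SD. The groups overlap in every panel except that of Cat, where the siCD36 libraries at 91.5 to 96.1 CPM lie above the siCont libraries at 76.1 to 85.6 CPM.

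None of the 10 antioxidant enzyme genes passed the quasi-likelihood test of edgeR, with p-values adjusted by Benjamini-Hochberg over the 11796 genes tested. Of these, 621 passed (5.26%), with 2.20% of all genes higher and 3.06% lower in siCD36 libraries. Only Cat had an unadjusted p under 0.05, as did 25.4% of all genes, with 12.5% of all genes in the direction of Cat. Cat alone separated the groups without overlap, as did 32.4% of all genes, 16.1% with siCD36 above. At the study's thresholds, a 2-fold change in either direction with an unadjusted p below 0.05, 1.76% of all genes passed and 0 of the members did. DESeq2, which called 14.2% of all genes, and limma voom also called 0 of the 10 and likewise gave 1 unadjusted p under 0.05. The median log2 fold change of the members was -0.05, with 4 above and 6 below 0, beside 0.0028 over all genes. The median size of the change, without its sign, was 0.10 for the members and 0.18 for all genes. A p that misses the threshold does not show equal levels, so each gene is given with the 95% interval of its siCD36 to siCont ratio. All 10 intervals lay inside a 2-fold change and 9 of them inside a 1.5-fold change.

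**Figure D2:**
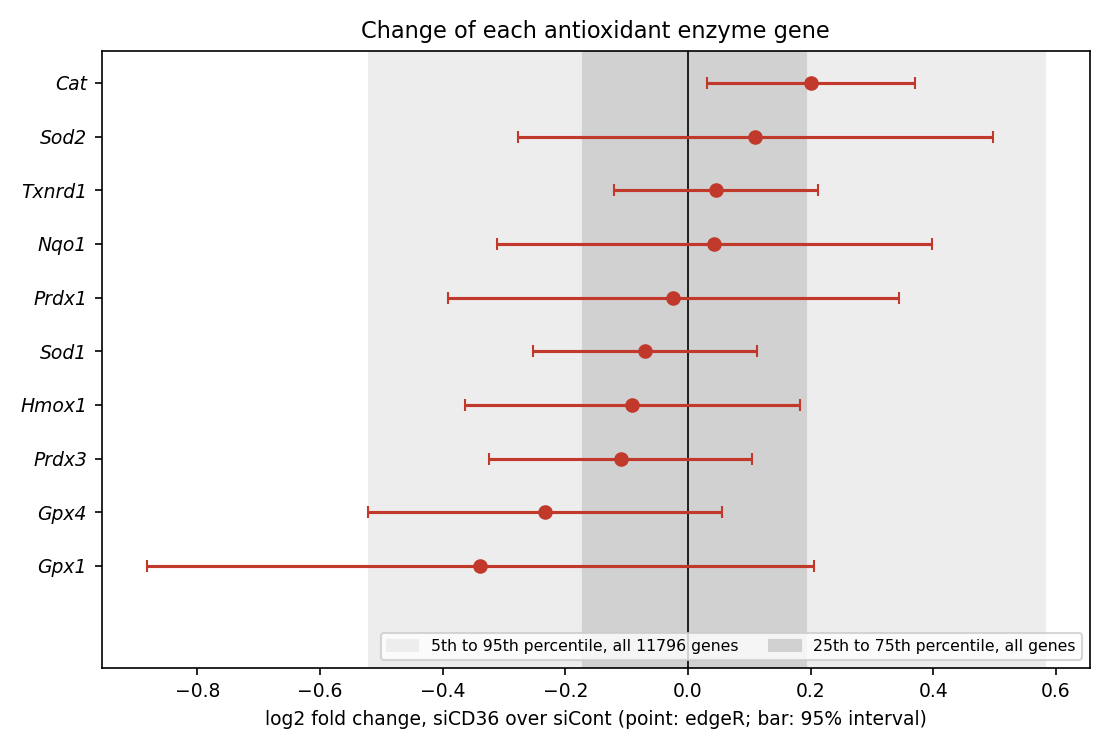
Log2 fold change of each antioxidant enzyme gene, siCD36 over siCont, from edgeR, with its 95% interval, over bands that hold the middle of all 11796 genes tested. Cat is the gene whose interval lies above 0, at 0.20 (0.03 to 0.37), and Gpx1 has the widest interval, from -0.88 to 0.21.

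The superoxide dismutases did not pass the test. Sod1 (ENSMUSG00000022982, GRCm38 chr16:90220754-90226329) encodes the copper and zinc enzyme of the cytosol. It had 234, 206 and 198 CPM in siCD36 libraries, against 228, 221 and 222 CPM in siCont libraries. The siCD36 libraries lay on both sides of the siCont libraries, and the log2 fold change was -0.07 (standard error 0.0761, adjusted p = 0.609 from edgeR, ratio 0.952, 95% interval 0.839 to 1.08). Sod2 (ENSMUSG00000006818, chr17:13006846-13037398) encodes the manganese enzyme of the mitochondrial matrix, where the respiratory chain releases superoxide. It had 148, 121 and 94.5 CPM with siCD36, against 120, 113 and 104 CPM with siCont. Its siCD36 libraries spread around all siCont libraries, and the log2 fold change was 0.11 (standard error 0.161, adjusted p = 0.715 from edgeR, ratio 1.08, 95% interval 0.825 to 1.41). Without siCD36 replicate 1 the log2 fold change of Sod2 was -0.06. A stretch of 3110 bases in annotated Sod2 transcripts is 98.3% identical to Rps6ka2 transcripts. A stretch of 3108 bases is 98.5% identical to transcripts of AC166110. Rps6ka2 and AC166110 held 27.6% and 4.39% as many counts as Sod2, and some Sod2 reads may not be told apart from theirs.

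Cat (ENSMUSG00000027187, chr2:103453849-103485160) encodes catalase, the hydrogen peroxide-splitting enzyme of peroxisomes, and had the smallest p of the group. It had 91.5, 95.9 and 96.1 CPM in siCD36 libraries, against 85.6, 85.0 and 76.1 CPM in siCont libraries. Every siCD36 library lay above every siCont library (exact permutation test, 2-sided, p = 0.1, the smallest that 3 against 3 allow). The log2 fold change was 0.20 (standard error 0.0703, unadjusted p = 0.0266, adjusted p = 0.142 from edgeR, ratio 1.15, 95% interval 1.02 to 1.29). It was positive in all 20 alternative fits, at 0.15 to 0.23, and its adjusted p stayed between 0.101 and 0.340.

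The glutathione peroxidases had the lowest log2 fold changes of the group and did not pass the test, and Gpx1 varied most among the siCD36 libraries. Gpx1 (ENSMUSG00000063856, chr9:108338903-108340343) encodes the abundant enzyme of cytosol and mitochondria that reduces hydrogen peroxide with glutathione. It had 178, 90.1 and 128 CPM in siCD36 libraries, against 164, 169.5 and 167 CPM in siCont libraries. Replicate 1 of siCD36 was above all siCont libraries, and replicates 2 and 3 were below all of them. The coefficient of variation of Gpx1 was 33.2% with siCD36, higher than that of 92.1% of tested genes, and 1.64% with siCont, higher than that of 4.04% of them. The log2 fold change was -0.34 (standard error 0.226, adjusted p = 0.399 from edgeR, ratio 0.791, 95% interval 0.542 to 1.15).

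Gpx4 (ENSMUSG00000075706, chr10:80047166-80056439) encodes the peroxidase that reduces lipid hydroperoxides within membranes and guards cells against ferroptosis. It had 739.6, 576 and 552 CPM in siCD36 libraries, against 742, 747 and 706 CPM in siCont libraries. Replicate 1 of siCD36 was within the siCont range, and replicates 2 and 3 were below it. The log2 fold change was -0.23 (standard error 0.120, adjusted p = 0.280 from edgeR, ratio 0.851, 95% interval 0.697 to 1.04). A pseudogene, Gpx4-ps2, is 99.7% identical to Gpx4 over 762 bases and held 14.3% as many counts. It had 100, 89.0 and 83.1 CPM in siCD36 libraries, against 111, 109 and 85.9 CPM in siCont libraries (log2 fold change -0.17, adjusted p = 0.446 from edgeR), and reads of this pair may be shared.

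The peroxiredoxins did not pass the test. Prdx1 (ENSMUSG00000028691, chr4:116685544-116700822) encodes the cytosolic enzyme that senses and removes hydrogen peroxide. It had 443, 591 and 434 CPM with siCD36, against 468, 449.5 and 575 CPM with siCont. A single library was high in each group, replicate 2 of siCD36 and replicate 3 of siCont, and the log2 fold change was -0.02 (standard error 0.153, adjusted p = 0.940 from edgeR, ratio 0.984, 95% interval 0.762 to 1.27), a sign that turned with library totals in place of TMM and in limma on log2(FPKM). Leaving out siCD36 replicate 1, siCD36 replicate 3 or siCont replicate 3 gave 0.04, 0.06 and 0.09. Prdx3 (ENSMUSG00000024997, chr19:60864051-60874556) encodes the peroxiredoxin of mitochondria. It had 195, 173 and 156 CPM in siCD36 libraries, against 188, 194 and 183 CPM in siCont libraries. As for Gpx1 and Gpx4, replicates 2 and 3 of siCD36 were below all siCont libraries and replicate 1 was not, and the log2 fold change was -0.11 (standard error 0.0889, adjusted p = 0.485 from edgeR, ratio 0.927, 95% interval 0.799 to 1.07).

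Txnrd1, Hmox1 and Nqo1, which are under NRF2 control, did not pass the test. Txnrd1 (ENSMUSG00000020250, chr10:82833951-82897712), the cytosolic thioredoxin reductase, had 131, 142 and 141 CPM in siCD36 libraries, against 124.5, 138 and 139.5 CPM in siCont libraries. The groups overlapped, and its ratio of 1.03 had a narrow interval of 0.919 to 1.16 (log2 fold change 0.05, standard error 0.0695, adjusted p = 0.726 from edgeR). For Txnrd1, leaving out siCont replicate 1 gave -0.0039. Hmox1 (ENSMUSG00000005413, chr8:75093621-75100589) encodes the inducible heme oxygenase, which breaks heme into biliverdin, iron and carbon monoxide. It had 45.7, 37.2 and 35.4 CPM with siCD36, against 40.4, 41.1 and 44.4 CPM with siCont. Its siCD36 libraries lay above and below the siCont libraries, and the log2 fold change was -0.09 (standard error 0.114, adjusted p = 0.665 from edgeR, ratio 0.939, 95% interval 0.777 to 1.14). Nqo1 (ENSMUSG00000003849, chr8:107388225-107403206), the quinone reductase, rested on 318 to 361 counts in siCD36 libraries and 249 to 299 counts in siCont libraries. It had 5.04, 5.19 and 4.37 CPM with siCD36, against 5.23, 4.60 and 4.33 CPM with siCont. The groups overlapped fully, and the log2 fold change was 0.04 (standard error 0.147, adjusted p = 0.883 from edgeR, ratio 1.03, 95% interval 0.806 to 1.32), with -0.0075 without siCD36 replicate 2 and -0.015 without siCont replicate 3.

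The siCD36 libraries differed among themselves in several of these genes. Replicate 1 was the highest of the siCD36 libraries in 6 of the 10 genes, namely Gpx4, Prdx3, Gpx1, Sod1, Hmox1 and Sod2. It was below the siCont range in 1 gene, while replicate 2 was below it in 5 genes and replicate 3 in 7 genes, beside 32.0%, 33.2% and 34.8% of all genes in replicates 1, 2 and 3. Above that range lay 6, 4 and 2 of the 10 genes in replicates 1, 2 and 3. The shares of all genes above that range, or highest in replicate 1, were not counted. Those counts of members thus cannot be set against all genes. Gpx4, Prdx3, Gpx1, Sod1 and Hmox1 were below all siCont libraries in both replicates 2 and 3, as were 25.8% of all genes. Cat was above all siCont libraries in each of the siCD36 libraries. The summed level of the 14 myotube markers was also highest in replicate 1, with 13492, 10774 and 9894 FPKM in siCD36 replicates 1, 2 and 3, against 16558, 14527 and 13418 FPKM in siCont libraries. Single markers did not all follow this sum. Acta1 did, at 4164, 3150 and 2869 FPKM in siCD36 replicates 1, 2 and 3. Myh3 went the other way, at 297, 310 and 344 FPKM in the same libraries. The part of the myotube markers in the differences between siCD36 libraries was not tested.

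Without siCD36 replicate 1, 6 of the 10 genes had an unadjusted p under 0.05 in edgeR, as did 30.7% of all genes in that fit, and Gpx4 passed the adjusted threshold, as did 9.16% of all genes. The log2 fold change of Gpx4 was then -0.38 (standard error 0.0631, adjusted p = 0.0340 from edgeR). Gpx1 had -0.61 (standard error 0.153, adjusted p = 0.0660 from edgeR), Hmox1 -0.21, Prdx3 -0.19, Sod1 -0.14 and Cat 0.22. All of these 6 genes but Cat were below all siCont libraries in both remaining siCD36 libraries, as given above. For them this fit restates that pattern and adds no separate evidence. Without siCD36 replicate 2, the log2 fold change of Gpx1 was -0.13. In the other fits with a single library left out, none of the 10 genes passed.

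**Figure D3:**
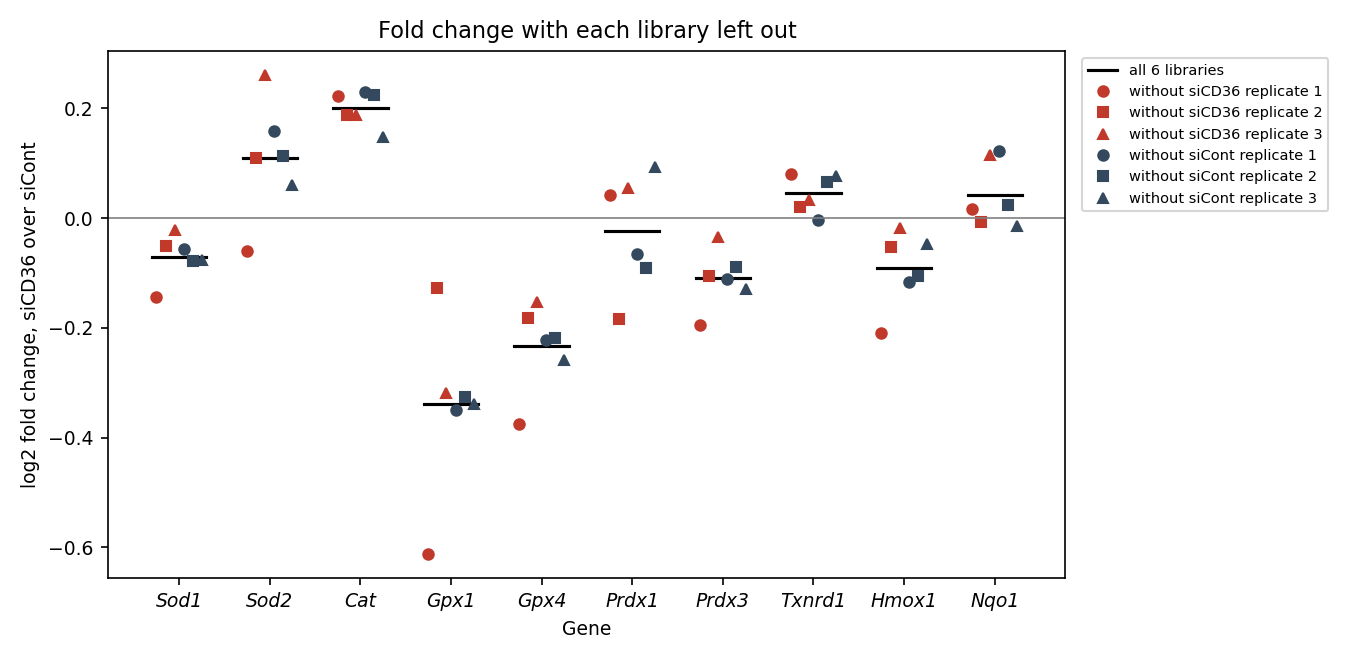
Log2 fold change of each antioxidant enzyme gene, siCD36 over siCont, from edgeR with all 6 libraries (black line) and with each library left out (red for siCD36, blue for siCont, shapes for replicates 1, 2 and 3). The fit without siCD36 replicate 1 lies lowest for Gpx1, at -0.61, and for Gpx4, at -0.38, while Cat stays between 0.15 and 0.23.

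Genes around these enzymes were read from 7 lists, which share some genes and hold 137 in all. Of the 119 that were tested, 1 rose, 7 fell and 111 did not pass, which is 6.72% called beside 5.26% of all genes, at a median log2 fold change of -0.10. The genes that fell included the mitochondrial NADPH producers Idh2 and Nnt, and the gene that rose was the aldo-keto reductase Akr1b8.

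Of 24 tested paralogs and partners of the members, none rose and Sesn1 fell, with a median log2 fold change of -0.03. Over all genes 2.20% rose and 3.06% fell. In this list 7 had an unadjusted p under 0.05 from edgeR, as did 25.4% of all genes. Sesn1 encodes sestrin 1, a stress protein under p53 and FOXO control that also inhibits mTORC1. It had 40.8, 45.2 and 46.0 CPM in siCD36 libraries, against 66.9, 67.4 and 64.5 CPM in siCont libraries (log2 fold change -0.59, standard error 0.0758, adjusted p = 0.0173 from edgeR). Txn1, the cytosolic thioredoxin that recharges peroxiredoxins, was chosen after its values were seen. It had 313, 287 and 264 CPM in siCD36 libraries, against 245, 232 and 249.9 CPM in siCont libraries, without overlap, but did not pass (log2 fold change 0.25, adjusted p = 0.118 from edgeR). Sod3, Gpx7 and Msrb2 were under the filter.

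Of 19 tested genes of glutathione synthesis and recycling, none rose and 3 fell, with a median log2 fold change of -0.02. Over all genes 2.20% rose and 3.06% fell. In this list 5 had an unadjusted p under 0.05 from edgeR, as did 25.4% of all genes. Idh2, the isocitrate dehydrogenase that makes NADPH in mitochondria, had 78.3, 70.9 and 70.0 CPM with siCD36, against 97.5, 100.3 and 103 CPM with siCont (log2 fold change -0.46, standard error 0.0692, adjusted p = 0.0252 from edgeR). Nnt, the transhydrogenase that makes NADPH at the inner mitochondrial membrane, had 32.2, 32.1 and 33.4 CPM with siCD36, against 71.5, 73.2 and 43.6 CPM with siCont. Its siCD36 libraries were nearly equal and 1 siCont library was low, and the log2 fold change was -0.95 (standard error 0.198, adjusted p = 0.0489 from edgeR). This call was lost with no filter (adjusted p = 0.0729) and with filterByExpr (0.0517) in edgeR, in limma voom (0.0611) and in limma on log2(FPKM) (0.0613 and 0.0623). Oplah, which returns oxoproline to glutamate, fell at a low level (log2 fold change -0.72, adjusted p = 0.0278 from edgeR), a call lost in limma on log2(FPKM) (adjusted p = 0.0588 and 0.0698). Gsr, the reductase that renews glutathione, did not pass (log2 fold change -0.18, adjusted p = 0.206 from edgeR), nor did Gclc, the catalytic subunit of glutathione synthesis (log2 fold change 0.15, adjusted p = 0.343 from edgeR), and both were picked with their values known.

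Of 29 tested NRF2 targets beyond the members, 1 rose and 2 fell, with a median log2 fold change of -0.13. Over all genes 2.20% rose and 3.06% fell. In this list 9 had an unadjusted p under 0.05 from edgeR, as did 25.4% of all genes. Akr1b8, an aldo-keto reductase that detoxifies lipid aldehydes, had 235, 232 and 244 CPM in siCD36 libraries, against 173, 163 and 169 CPM in siCont libraries (log2 fold change 0.49, standard error 0.0555, adjusted p = 0.0152 from edgeR). Gsta4, the glutathione transferase of the lipid aldehyde 4-hydroxynonenal, went the other way, with 102, 101 and 98.8 CPM with siCD36, against 134, 129.97 and 132 CPM with siCont (log2 fold change -0.39, standard error 0.0513, adjusted p = 0.0180 from edgeR). Gsta1 fell at a low level, with 1.38, 0.705 and 0.728 CPM with siCD36, against 6.07, 3.13 and 4.26 CPM with siCont (log2 fold change -2.26, standard error 0.378, adjusted p = 0.0302 from edgeR). It belongs to a family of similar genes whose reads may be shared.

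None of 15 tested NRF2 regulators passed, at 0 called in edgeR, 2 in DESeq2 (14.2% of all genes) and 4 with an unadjusted p under 0.05 (25.4% of all genes). Nfe2l2, which encodes NRF2, had 189.5, 179 and 163 CPM in siCD36 libraries, against 195, 189.8 and 192 CPM in siCont libraries (log2 fold change -0.12, adjusted p = 0.348 from edgeR). The log2 fold change was -0.12 for Keap1, which marks NRF2 for degradation (adjusted p = 0.494 from edgeR), and 0.25 for Bach1, a repressor of Hmox1 (adjusted p = 0.273 from edgeR). Nfe2l2, Keap1 and Bach1 were picked with their values known.

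None of 21 tested genes of selenoprotein synthesis and other selenoproteins passed, at 0 called in edgeR, 4 in DESeq2 (14.2% of all genes) and 8 with an unadjusted p under 0.05 (25.4% of all genes). Sephs2, which makes the selenium donor, had 23.0, 24.0 and 24.4 CPM in siCD36 libraries, against 16.2, 18.1 and 19.6 CPM in siCont libraries (log2 fold change 0.40, adjusted p = 0.0755 from edgeR). Selenow, a muscle selenoprotein, had 216, 157 and 141 CPM in siCD36 libraries, against 238, 210.3 and 195 CPM in siCont libraries (log2 fold change -0.32, adjusted p = 0.284 from edgeR). As for Gpx4, replicates 2 and 3 of siCD36 were below all siCont libraries for Selenow, and for 25.8% of all genes. Among other selenoproteins of this list, Selenon, Selenof and Selenot lay above all siCont libraries (log2 fold changes 0.32, 0.31 and 0.20). Selenom and Selenos lay below them (-0.46 and -0.23). All these named genes were picked with their values known.

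Of 21 tested genes of iron storage and heme handling, none rose and Tfrc fell, with a median log2 fold change of -0.12. Over all genes 2.20% rose and 3.06% fell. In this list 4 had an unadjusted p under 0.05 from edgeR, as did 25.4% of all genes. Tfrc, the transferrin receptor that imports iron, had 119, 112 and 103 CPM in siCD36 libraries, against 197, 179 and 158 CPM in siCont libraries (log2 fold change -0.68, standard error 0.0990, adjusted p = 0.0237 from edgeR). Fth1, the ferritin heavy chain that stores iron, did not pass, although its groups did not overlap (log2 fold change -0.34, adjusted p = 0.146 from edgeR), and was chosen after its values were seen. None of the 3 tested metallothionein genes passed, at 0 called in edgeR, 0 in DESeq2 and 1, Mt1, with an unadjusted p under 0.05, beside the same shares of all genes. None of the 8 calls in these lists held in all 6 fits with a library left out, while the sign of each did.

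**Figure D4:**
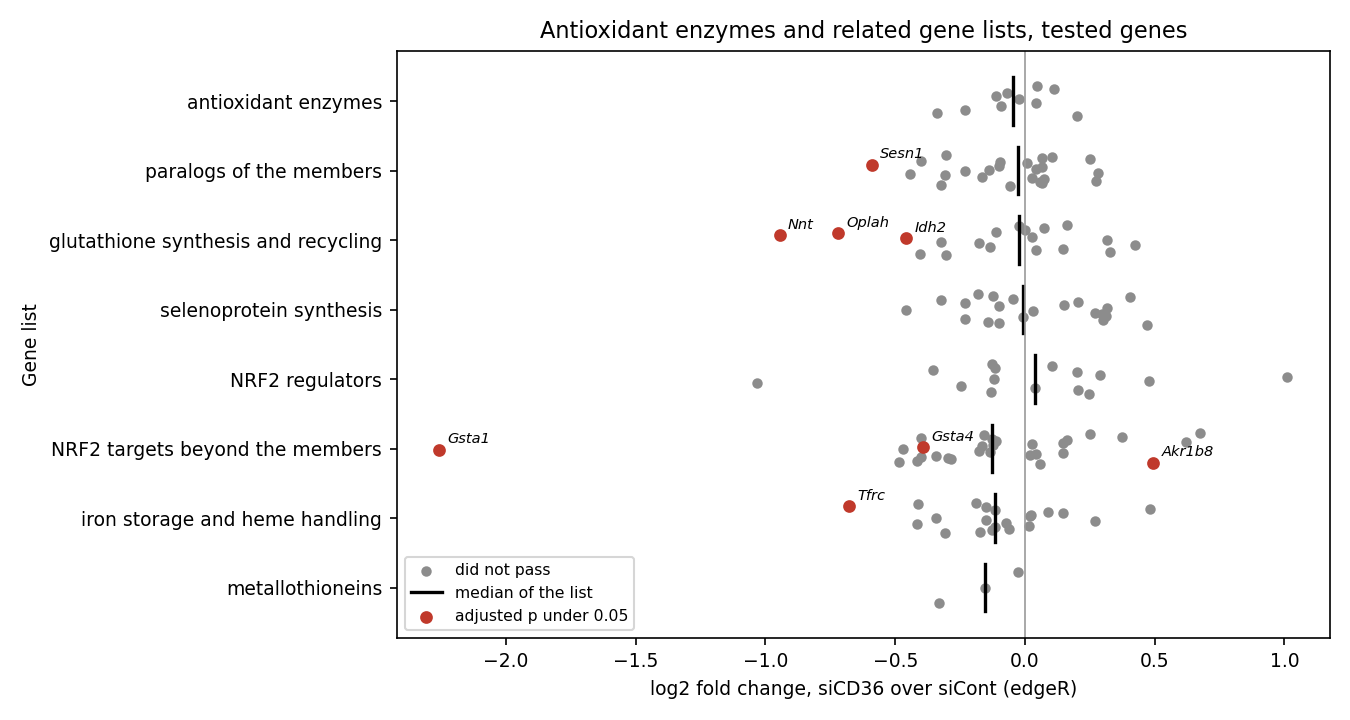
Log2 fold change, siCD36 over siCont, from edgeR, of the tested genes of the antioxidant enzyme group and of 7 related lists, with red points for genes with an adjusted p under 0.05, grey points for the others and a black line for each list's median. No antioxidant enzyme gene is red, while Sesn1, Nnt, Oplah, Idh2, Gsta1, Gsta4 and Tfrc lie below 0 and Akr1b8 above it.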

How the data were processed

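RNA-seq of 6 C2C12 libraries was analysed, 3 with siCD36 and 3 with siCont, grouped by their labels. Per the study's methods, the authors mapped paired reads using HISAT 2.0, and StringTie gave the FPKM. For each gene the deposited table gives unnormalized counts beside FPKM, which the authors scaled by gene length and depth. The ratio of the deposited counts to FPKM implied the same length in every library, within 0.82% for each member. The sources used here do not give the counting tool, strand setting, build or annotation. Coordinates equal those of GENCODE M21 (GRCm38) for 9 of 10 members, all but Sod2.

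The 11796 genes whose mean FPKM reached 1 were tested with edgeR 4.0.16 in R 4.3.3 (TMM, glmQLFit, glmQLFTest, condition as the only term), with Benjamini-Hochberg adjustment over all genes. The absolute log2 fold change over the root of the F statistic gave the standard error, and 95% intervals use the test's degrees of freedom. The script was tested on simulated data. Close copies of members were annotated transcripts of other genes with at least 90% identity over 300 bases.

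The members, lists and alternatives were chosen with earlier results of these data known. Named genes were all members, Cd36, and up to 5 genes a list past the threshold; exceptions are marked in the text. Alternatives were other scalings (RLE, upper quartile, library totals, no mitochondrial genes), filters, tools (DESeq2 1.42.0, robust edgeR, limma 3.58.1 voom, limma on log2(FPKM + 1) and log2(FPKM + 0.1)), the replicate block and each library left out. Adding pseudogene counts to members was chosen after seeing the data. No libraries were duplicates of each other (chi-square per gene of 74.1 or more). The result of 1 further list is not reported here.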

Additional observations from a re-analysis of the deposited data

How the results depend on the processing

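The 621 genes called became 327 with no filter, 1677 in DESeq2 and 20 to 1081 with single libraries left out (20 without siCD36 replicate 2, 33 without siCont replicate 2, 1081 without siCD36 replicate 1). The 0 members called stayed 0 in every alternative but those with a library left out, where it was 0 to 1. Same-numbered libraries correlated at 0.128, -0.0432 and 0.013 in their deviations from the group means, and the other pairs at -0.106 to 0.107. These values cannot tell whether same-numbered libraries shared a culture or batch. With the replicate block 199 genes and none of the members were called, with Nnt, Oplah, Idh2, Gsta4, Sesn1, Myf5 and Ccna2 no longer among them. The log2 fold change of Prdx1 was 0.0045 with library totals, 0.0018 in limma on log2(FPKM + 1) and 0.0018 on log2(FPKM + 0.1). With libraries left out it ranged from -0.18 to 0.0926 for Prdx1, -0.0594 to 0.26 for Sod2, -0.015 to 0.12 for Nqo1 and -0.0039 to 0.0802 for Txnrd1. Adding pseudogene counts turned no sign and added no call, but the copies of Sod2 were not among the counts added. Of the 6 fits with a library left out, Akr1b8 was called in 4, Sesn1, Tfrc, Myh3, Myf5 and Ccna2 in 2, and Idh2, Nnt, Oplah, Gsta1, Gsta4 and Tek in 1, with the same sign in all, and such fits have fewer samples. Calls over the 7 lists ranged from 0 to 6 per list across the alternatives. Nqo1, at 249 to 361 counts, is the member most limited by counting error.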

Other observations

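Srxn1, which encodes sulfiredoxin, the enzyme that repairs overoxidized peroxiredoxins, varied more between libraries of the same group than between groups. It had 55.3, 11.4 and 31.3 CPM in siCD36 libraries, against 15.2, 50.4 and 63.8 CPM in siCont libraries, and its log2 fold change was -0.40 (standard error 0.677, adjusted p = 0.755 from edgeR). Blvrb, which encodes biliverdin reductase B, had 14.7, 11.6 and 8.90 CPM in siCD36 libraries, against 15.2, 15.5 and 16.2 CPM in siCont libraries (log2 fold change -0.42, adjusted p = 0.218 from edgeR). Hmox2, the constitutive heme oxygenase, had 61.1, 57.3 and 60.2 CPM in siCD36 libraries, against 65.1, 69.1 and 66.2 CPM in siCont libraries, and separated the groups without passing the adjusted threshold (log2 fold change -0.17, adjusted p = 0.177 from edgeR). All 3 were picked with their values known.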
